A study of Mus musculus with 6 samples.

Results

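The genes described are the 3 voltage-dependent anion channels (Vdac1, Vdac2 and Vdac3) and 6 partners of mitochondrial permeability transition and calcium entry: Ppif, Slc25a4, Slc25a5, Tspo, Mcu and Micu2. They were chosen by symbol from the 28476 genes of the deposited expression table, and all 9 symbols were found, each with 1 identifier. The RNA came from whole livers of C57BL/6 mice in 2 groups of 3 libraries, labelled Flox and Nedd4 HepKO. Every animal had been fasted overnight and then given 300 mg/kg acetaminophen (APAP) intraperitoneally, and livers were taken 24 h later. Both genotypes thus had the same dose and time, but the extent of injury was not measured here. Livers without the drug are not analysed here. Age, sex and the driver of the knockout are not given in the sources used here, and the labels do not tie a library to 1 animal; the p-values therefore reflect only how these libraries vary, which may be technical variation. The series title names VDAC1 as a protein degraded through the ubiquitin ligase NEDD4-1. The comparison addressed here is whether the RNA of the channels and their partners differed between the genotypes.

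VDAC proteins are beta-barrel pores of the outer mitochondrial membrane that pass ATP, ADP, other metabolites and calcium ions. In the inner membrane, the adenine nucleotide carriers exchange ADP for ATP, and the uniporter complex admits calcium ions into the matrix under the control of calcium-sensing regulators. When the matrix is loaded with calcium or oxidised, as in acetaminophen injury, a high-conductance pore opens, a step promoted by cyclophilin D, the Ppif product, and known as the permeability transition; the molecular make-up of that pore is debated.

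Levels are in FPKM, fragments scaled to transcript length and to the size of the library, which allows genes to be compared per length. Library sums lay between 456176 and 496303 FPKM, and the depth is unknown because FPKM carry no counts. Transcripts of the mitochondrial genome made up 24.6% of the FPKM of HepKO replicate 1 against 16.7% to 18.3% in the other 5 libraries, and that library had the lowest HepKO value for 6 of the 9 genes (Vdac1, Vdac2, Vdac3, Slc25a5, Tspo and Mcu). Its part in the differences was not tested, and estimates without it are given beside the genes whose value it moved by over 1.5 times or whose sign it changed. Nedd4, the targeted ligase (ENSMUSG00000032216), had 2.18, 2.59 and 2.23 FPKM in Flox livers against 0.618, 0.666 and 0.565 FPKM in HepKO livers, lower in every HepKO library (log2 fold change -1.04, SE 0.10, limma adjusted p = 0.00148). The summed level of 8 hepatocyte markers was 35600 to 42300 FPKM in Flox livers against 39000 to 43600 FPKM in HepKO livers, and none of the 8 was listed at 0. Alb alone had 22230 to 28280 FPKM in Flox and 25220 to 29070 FPKM in HepKO livers, so it made up most of these sums. Of these 8, 1 was called lower, Cps1 (344 and 143 FPKM, limma adjusted p = 0.0023), and 0 higher. Groups did not overlap for 3 lower (Cps1, Ttr and Cyp2e1) and 1 higher (Apoa1), against 25.2% and 17.2% of all tested genes.

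Of the 9 genes, 2 were lower in HepKO livers, Vdac3 and Micu2, and 0 were higher (limma on log2(FPKM + 1), Benjamini-Hochberg adjusted p below 0.05 over the 12712 genes that averaged 0.5 FPKM or more; all 9 passed that filter). Over all tested genes 20.3% were called, 11.0% as lower and 9.33% as higher in HepKO livers, so 2 of 9 called is near that background. The balance of directions depended on scaling: 1186 genes were called higher and 1397 lower as deposited, 1434 and 1137 after median-ratio rescaling, and 1350 and 1231 after rescaling that left out mitochondrial genes and the 50 most abundant. An unadjusted p below 0.05 was found for 4536 of the 12712 tested genes, in either direction. Among the 9 genes there were 3 lower at that level, Tspo being the third, and 0 higher. The same 3 genes had groups that did not overlap, and no gene was higher without overlap; among all tested genes, groups did not overlap in the lower direction for 25.2% and in the higher direction for 17.2%. The median log2 fold change (HepKO minus Flox) was -0.17 over the 9 genes and -0.06 over all tested genes. The exact two-sided permutation test of 1 gene cannot go below p = 0.1 with 3 libraries against 3, and it gave 0.1 for Vdac3, Micu2 and Tspo. By the authors' deposited q-values, none of the 9 passed 0.05 (the smallest were 0.0909 for Tspo, 0.108 for Micu2 and 0.146 for Vdac3), while 18.5% of the 13783 genes with a deposited p-value below 1 did.

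**Figure D1:**
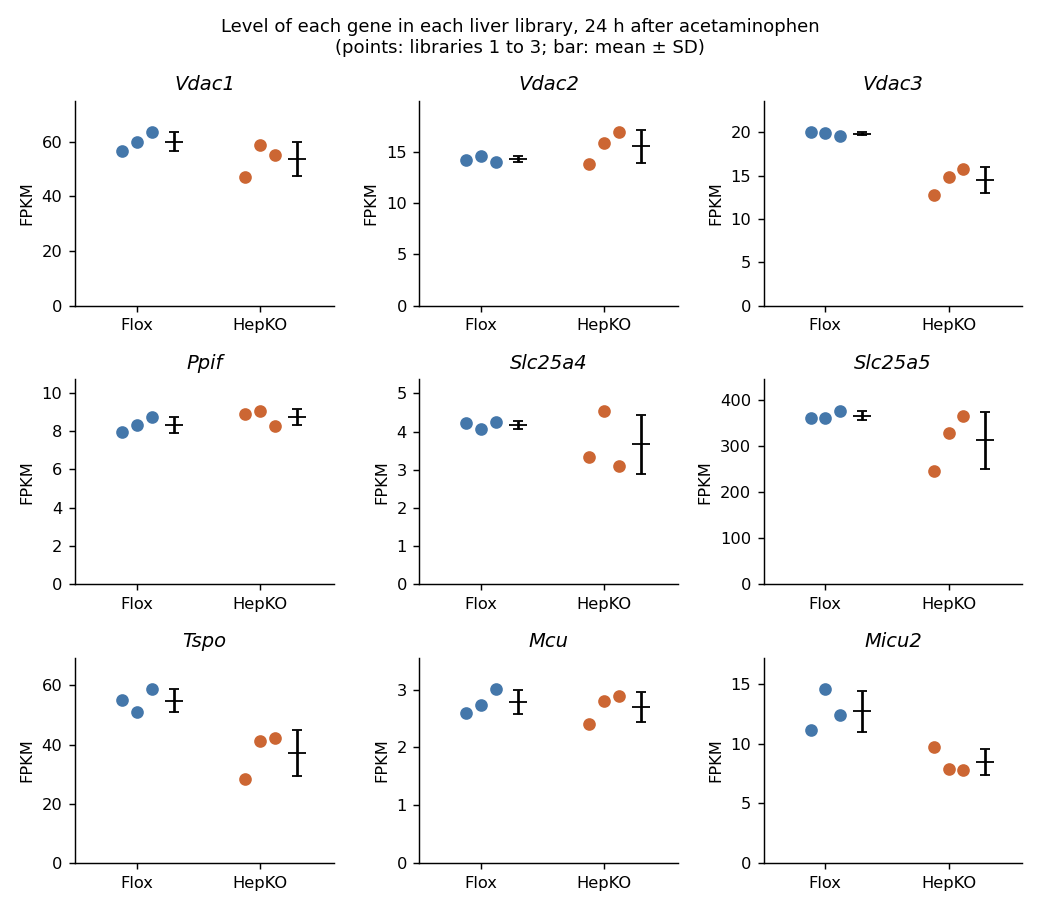
Level of each of the 9 genes (FPKM, axes from 0) in the 3 Flox and 3 HepKO liver libraries; points are libraries in the order 1 to 3, and the bar beside them is the mean ± SD. Vdac3, Tspo and Micu2 have no overlap between the groups, and the Vdac1 groups overlap.

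Vdac1 encodes the main outer membrane channel and is the gene named in the series title (ENSMUSG00000020402, chromosome 11, 52360860 to 52389397, plus strand, GRCm38). Vdac1 stood at 56.7, 59.7 and 63.5 FPKM in Flox livers against 47.0, 58.9 and 55.0 FPKM in HepKO livers. HepKO replicate 2 lay among the Flox values, so the groups overlapped. The log2 fold change was -0.16 (SE 0.12, 95% interval -0.44 to 0.12, limma adjusted p = 0.361), and it passed under none of the alternatives tried. Leaving out HepKO replicate 1 moved the estimate to -0.07. That interval leaves room for a fall in RNA of about the size seen for Vdac3, so it does not show equal levels. These are RNA levels; the protein, which the title concerns, is not measured here.

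Vdac2, the isoform known to hold the death effector BAK1 in the outer membrane (ENSMUSG00000021771, chromosome 14, 21825238 to 21845879, plus strand), had 14.2, 14.6 and 14.0 FPKM in Flox livers against 13.8, 15.8 and 16.9 FPKM in HepKO livers. It did not pass, with a log2 fold change of 0.11 (SE 0.10, limma adjusted p = 0.494), which was 0.18 when HepKO replicate 1 was left out and 0.05 when HepKO replicate 3 was. It was the only channel gene whose estimate lay above 0, and the lowest HepKO value was below every Flox value. Its listed span overlaps that of the opposite-strand gene Comtd1 by 25 bases.

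Vdac3, the third isoform (ENSMUSG00000008892, chromosome 8, 22577075 to 22593813, minus strand), fell. It had 20.0, 19.9 and 19.6 FPKM in Flox livers against 12.8, 14.8 and 15.8 FPKM in HepKO livers. The Flox libraries were close together and every HepKO library lay below them. The mean went from 19.9 ± 0.23 to 14.4 ± 1.49 FPKM (SD, n = 3), a log2 fold change of -0.44 (SE 0.11, 95% interval -0.69 to -0.18, limma adjusted p = 0.031). The call was lost in 5 of 6 fits without 1 library (adjusted p = 0.0674, 0.0925 and 0.0856 without Flox replicate 1, 2 or 3, and 0.0622 and 0.0888 without HepKO replicate 1 or 2), and over the 6 fits the log2 fold change lay between -0.50 and -0.36.

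The Vdac3 value also depends on how reads were shared with gene copies. Of the 1419 distinct stretches of 75 bases in the protein-coding Vdac3 transcripts of GENCODE M21, 623 (43.9%) also occur in 2 single-exon copies, Vdac3-ps1 on chromosome 13 (18030741 to 18031593, minus strand) and Gm7591 on chromosome 14 (27210397 to 27211249, plus strand). These stretches are shorter than the reads of 150 bases, so 43.9% is not the share of reads that cannot be assigned. The longest identical run is 408 bases with Vdac3-ps1 and 164 bases with Gm7591. The last 150 bases of that longer run, 1 read length of this study, are shown because a read from them cannot be assigned to either gene. They lie at chr13:18030741-18030890 on the minus strand in the copy (GRCm38, GENCODE transcript sequence, plus-sense of the transcript), contain the end of the Vdac3 reading frame, and are in lower case throughout because every base is shared.
Vdac3 and Vdac3-ps1: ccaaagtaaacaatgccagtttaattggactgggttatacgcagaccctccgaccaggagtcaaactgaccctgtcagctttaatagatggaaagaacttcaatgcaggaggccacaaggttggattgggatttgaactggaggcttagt
In the deposited table Vdac3-ps1 had 13.6, 16.1 and 15.9 FPKM in Flox livers against 11.2, 13.3 and 13.8 FPKM in HepKO livers, nearly as high as Vdac3 itself, and Gm7591 had 0.68 to 2.23 FPKM. Neither copy passed alone, and the groups overlapped for each. The log2 fold change was -0.24 for Vdac3-ps1 (SE 0.12, limma adjusted p = 0.204) and -0.33 for Gm7591 (SE 0.25, limma adjusted p = 0.386). Whether the reads given to these copies came from Vdac3 cannot be told from FPKM. Joined with both copies and weighted by transcript length, an alternative chosen after seeing the data, Vdac3 had 29.6, 30.1 and 30.1 FPKM in Flox livers against 20.5, 23.2 and 24.4 FPKM in HepKO livers. The joined value again showed no overlap, with a log2 fold change of -0.39 (SE 0.10, limma adjusted p = 0.0396).

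The make-up of the channel RNA within a library does not depend on how libraries are scaled. Vdac1 was 62.3%, 63.3% and 65.4% of the summed VDAC FPKM in Flox livers against 63.8%, 65.8% and 62.8% in HepKO livers, with overlap. Vdac2 was 15.6%, 15.5% and 14.4% in Flox and 18.8%, 17.7% and 19.2% in HepKO livers. Vdac3 was 22.0%, 21.1% and 20.2% in Flox and 17.4%, 16.5% and 18.0% in HepKO livers. The Vdac2 and Vdac3 shares thus separated the genotypes in opposite directions while the Vdac1 share did not. The shares add up to the whole in each library, so these directions are not separate observations. The Vdac2 level itself overlapped between the groups. The ratio of Vdac3 to Vdac2 was 1.41, 1.36 and 1.40 in Flox livers and 0.927, 0.932 and 0.934 in HepKO livers, so by the listed values Vdac3 was the more abundant of the pair in each Flox library and the less abundant in each HepKO library. That change of order rests on leaving the copies out: joined with them, Vdac3 (20.5, 23.2 and 24.4 FPKM in HepKO livers) was above Vdac2 in all 6 libraries. The summed VDAC level was 90.9, 94.2 and 97.1 FPKM in Flox livers against 73.7, 89.5 and 87.6 FPKM in HepKO livers. As deposited these sums did not overlap, as was so in the lower direction for 25.2% of single tested genes. Unlike the shares, the sum depends on how libraries are scaled. Median-ratio rescaling divides Flox replicate 1 by 1.022 and HepKO replicate 2 by 0.9781, which puts that HepKO sum above that Flox sum. These sums, shares and ratios are descriptions over genes already compared and carry no test, and Vdac3 enters the shares and the sum without its copies.

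**Figure D2:**
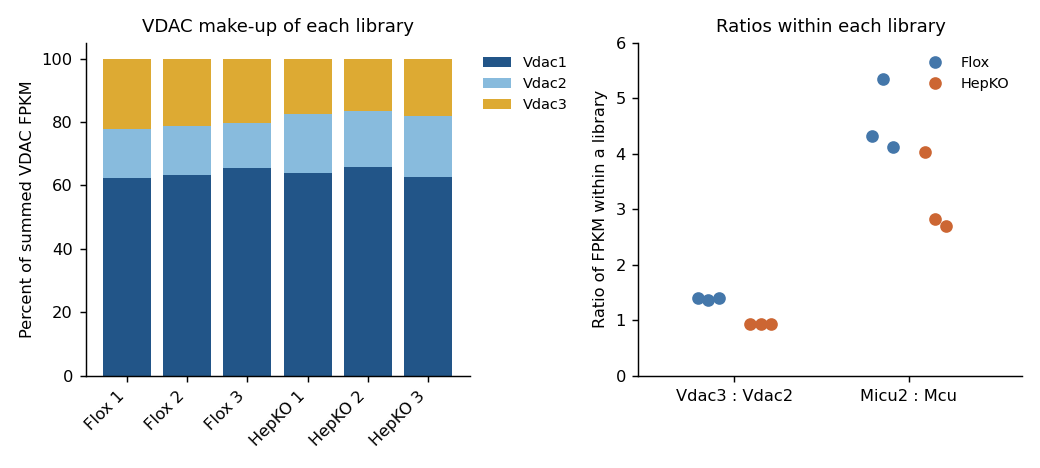
Left, percent of the summed VDAC FPKM held by Vdac1, Vdac2 and Vdac3 in each library (stacked bars, from 0). Right, the ratio of Vdac3 to Vdac2 and of Micu2 to Mcu within each library (points, axis from 0); the Vdac3 to Vdac2 ratio, without the Vdac3 copies, is 1.36 to 1.41 in Flox and 0.927 to 0.934 in HepKO livers.

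Mcu and Micu2 belong to the inner membrane calcium uniporter. Mcu encodes its pore subunit (ENSMUSG00000009647, chromosome 10, 59446984 to 59616692, minus strand), and Micu2 a calcium-sensing regulator of that pore (ENSMUSG00000021973, chromosome 14, 57916261 to 57999262, minus strand). Mcu had 2.60, 2.74 and 3.01 FPKM in Flox livers against 2.41, 2.80 and 2.90 FPKM in HepKO livers, and the groups overlapped. Its log2 fold change was -0.03 (SE 0.10, 95% interval -0.28 to 0.22, limma adjusted p = 0.856), and its sign changed to 0.03 after median-ratio rescaling and to 0.01 after rescaling that left out mitochondrial genes and the 50 most abundant. It was also above 0 when Flox replicate 3 (0.01) or HepKO replicate 1 (0.03) was left out.

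Micu2 fell, from 11.2, 14.6 and 12.4 FPKM in Flox to 9.70, 7.91 and 7.83 FPKM in HepKO livers. Every HepKO library lay below every Flox library. The mean went from 12.8 ± 1.74 to 8.48 ± 1.06 FPKM (SD, n = 3), 33.5% lower, with a log2 fold change of -0.54 (SE 0.14, limma adjusted p = 0.0361). The call was lost after median-ratio rescaling (adjusted p = 0.0813), after rescaling that left out mitochondrial genes and the 50 most abundant (0.0769), without a filter on low values (0.0699), and when Flox replicate 2 (0.105) or 3 (0.0902) or HepKO replicate 2 (0.115) or 3 (0.0837) was left out. In those fits without 1 library and the 2 others of that kind, the log2 fold change lay between -0.63 and -0.44.

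The ratio of Micu2 to Mcu was 4.32, 5.34 and 4.12 in Flox and 4.03, 2.82 and 2.70 in HepKO livers, separated by a narrow margin between Flox replicate 3 and HepKO replicate 1. This ratio was not tested.

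Sequence upstream of the gene start is shown for this pair because Micu2 fell and Mcu did not pass. RefSeq promoter entries (GRCm38.p6) were found for 6 of the 9 genes, and not for Vdac2, Vdac3 and Tspo. The 250 bases before the start are printed 5′ to 3′ along the gene's strand, for Mcu at chr10:59616693-59616942 and for Micu2 at chr14:57999263-57999512, both minus strand; capitals mark matches to the motifs listed after them.
Mcu: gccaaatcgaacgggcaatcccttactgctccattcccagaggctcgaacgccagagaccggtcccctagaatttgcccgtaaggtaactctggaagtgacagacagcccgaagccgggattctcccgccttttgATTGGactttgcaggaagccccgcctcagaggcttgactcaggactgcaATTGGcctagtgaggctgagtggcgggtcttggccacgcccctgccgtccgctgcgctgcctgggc
Micu2: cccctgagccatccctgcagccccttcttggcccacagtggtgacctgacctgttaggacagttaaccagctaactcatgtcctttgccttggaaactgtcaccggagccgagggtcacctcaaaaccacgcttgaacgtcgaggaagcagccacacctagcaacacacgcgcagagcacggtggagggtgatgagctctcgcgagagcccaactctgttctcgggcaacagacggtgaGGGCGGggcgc
The motifs searched on both strands were the GC box GGGCGG, the CCAAT box CCAAT, the ETS site CCGGAAG, the palindromic NRF1 core, the TATA box TATAAA, the cyclic AMP element TGACGTCA and the E-box CACGTG. The Mcu stretch held 2 CCAAT boxes, beginning 115 and 66 bases before the start, and no GC box. The Micu2 stretch held 1 GC box, beginning 11 bases before the start, and no CCAAT box. Both motifs are common: of 32851 promoters of this length, 32.7% held a GC box and 33.8% a CCAAT box. The other 5 motifs had no match in either stretch. A match of letters is a description and not a binding site.

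Ppif encodes cyclophilin D, the matrix peptidyl-prolyl isomerase that promotes pore opening (ENSMUSG00000021868, chromosome 14, 25694154 to 25700468, plus strand). It had 7.92, 8.32 and 8.74 FPKM in Flox livers against 8.88, 9.06 and 8.24 FPKM in HepKO livers, with overlap. The log2 fold change was 0.06 (SE 0.09, 95% interval -0.16 to 0.28, limma adjusted p = 0.681), and over the 6 fits without 1 library it ran from 0.03 (Flox replicate 1 left out) to 0.10 (HepKO replicate 3 left out).

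Slc25a5 and Slc25a4 encode adenine nucleotide carriers, ANT2 and ANT1, of which ANT1 is the form of heart and muscle. Slc25a5 (ENSMUSG00000016319, chromosome X, 36795651 to 36798807, plus strand) was the most abundant of the 9 genes, with 359.6, 359.8 and 376.4 FPKM in Flox livers against 244.8, 327.6 and 365.3 FPKM in HepKO livers. HepKO replicate 3 lay within the Flox range and HepKO replicate 1 far below it. The log2 fold change of -0.24 (SE 0.16, limma adjusted p = 0.313) became -0.08 when HepKO replicate 1 was left out and -0.37 when HepKO replicate 3 was. Of its 75-base stretches, which are shorter than a read, 27.9% occur in other genes, 6 in number. The 3 that share most, Gm5529, Gm5560 and Slc25a5-ps, were each at 2.45 FPKM or less in every library. Slc25a4 (ENSMUSG00000031633, chromosome 8, 46206797 to 46211284, minus strand) had 4.22, 4.06 and 4.26 FPKM in Flox livers against 3.34, 4.55 and 3.10 FPKM in HepKO livers. HepKO replicate 2 was the highest of the 6 libraries and the other 2 HepKO libraries were the lowest, a spread that left the gene undecided (log2 fold change -0.17, SE 0.14, limma adjusted p = 0.424). The estimate was -0.30 when HepKO replicate 2 was left out and -0.08 when HepKO replicate 3 was. The ratio of Slc25a5 to Slc25a4 was 85.2, 88.5 and 88.3 in Flox and 73.4, 71.9 and 118 in HepKO livers. Muscle markers summed to 10.1 to 14.2 FPKM over 6 genes in Flox and 1.25 to 6.47 FPKM in HepKO livers. Mb alone had 10.5, 13.1 and 9.17 FPKM in Flox livers against 4.62, 6.00 and 0.331 FPKM in HepKO livers. Ckm was also lower (means of 0.844 and 0.273 FPKM). Acta1, Tnnt3, Myh1 and Myh4, each under 0.5 FPKM in every library, had higher HepKO means, with Myh1 and Myh4 listed at 0 in all Flox livers. The part of these markers in the Slc25a4 values was not tested.

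Tspo encodes the translocator protein, an outer membrane protein that binds cholesterol and has been placed beside VDAC (ENSMUSG00000041736, chromosome 15, 83563592 to 83574203, plus strand). Tspo stood at 54.9, 50.9 and 58.7 FPKM in Flox livers against 28.2, 41.1 and 42.2 FPKM in HepKO livers. No HepKO value reached the lowest Flox value, and HepKO replicate 1 stood lowest. The log2 fold change of -0.57 (SE 0.17, 95% interval -0.97 to -0.17) did not pass (limma adjusted p = 0.0573). Leaving out HepKO replicate 1 gave -0.39, and the gene passed only after rescaling that left out mitochondrial genes and the 50 most abundant (adjusted p = 0.0441). The listed span of Tspo overlaps that of the opposite-strand gene Mcat over 196 bases. Mcat had a mean of 11.2 FPKM in Flox livers against 8.78 FPKM in HepKO livers. Whether counting used strand is not stated in the sources used here.

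Tspo is also expressed by myeloid cells, whose markers were mostly higher in HepKO livers. Of 9 neutrophil markers 8 were tested, and 4 of these (Cxcr2, Mmp8, Mmp9 and Il1r2) passed the filter only through HepKO livers. The other 4 were called higher. The summed level of all 9 was 10.6 to 20.5 FPKM in Flox livers against 134 to 160 FPKM in HepKO livers, with Ly6g listed at 0 in all Flox livers. Of 8 tested monocyte and macrophage markers 4 were called higher and 1 lower, 2 of the 4 (Itgam and Ccr2) having passed the filter only through HepKO livers and the 1 lower (Gpnmb) only through Flox livers, with summed levels of 87.8 to 110 FPKM in Flox livers against 126 to 159 FPKM in HepKO livers. Of 6 Kupffer cell markers 1 rose and 0 fell (0 at an unadjusted p below 0.05), with sums of 36.5 to 71.0 and 67.3 to 89.5 FPKM. Their part in the Tspo level was not tested. In whole liver, fewer cells of a type and less RNA per cell cannot be told apart, which holds for every gene given here.

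**Figure D3:**
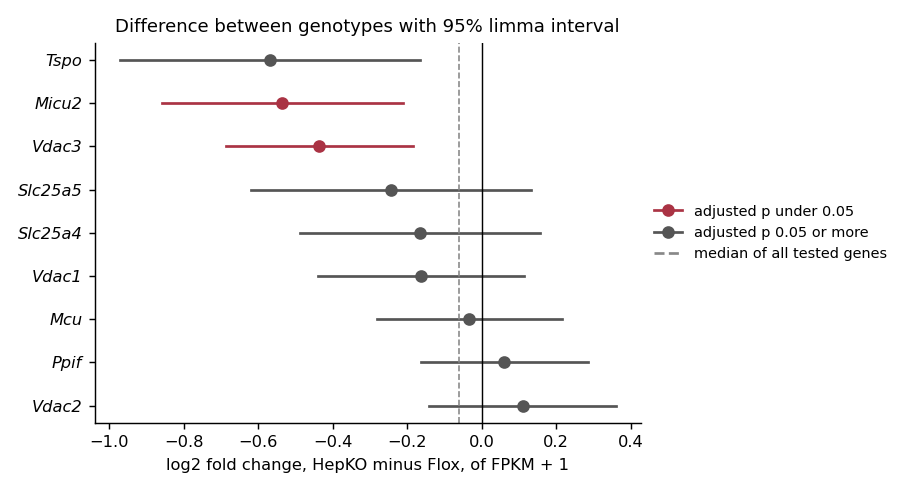
Log2 fold change of FPKM + 1 (HepKO minus Flox) of the 9 genes with the 95% limma interval; red marks adjusted p below 0.05, and the dashed line is the median of all tested genes at -0.06. Tspo, Micu2 and Vdac3 have intervals that lie below 0, and only the last 2 passed after adjustment.

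By level, the order in Flox livers was Slc25a5 (365 FPKM), Vdac1 (60.0), Tspo (54.8), Vdac3 (19.9), Vdac2 (14.3), Micu2 (12.8), Ppif (8.32), Slc25a4 (4.18) and Mcu (2.79). The libraries of Vdac1 and Tspo overlapped, as did those of Vdac2 and Micu2, although within each Flox library Tspo was below Vdac1 (ratios of 0.968, 0.853 and 0.924). In HepKO livers the order was Slc25a5 (313 FPKM), Vdac1 (53.6), Tspo (37.1), Vdac2 (15.5), Vdac3 (14.4), Ppif (8.73), Micu2 (8.48), Slc25a4 (3.66) and Mcu (2.70). There the libraries of Vdac2 and Vdac3 overlapped, as did those of Ppif and Micu2, and Vdac1 no longer overlapped Tspo. Vdac3 stands below Vdac2 in this order only without its copies, and above it in each HepKO library with them. Among tested genes, Slc25a5 stood at the 98.9th percentile of mean level and Mcu at the 42.6th.

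The genes most like each channel gene were found by the root mean square difference of log2(FPKM + 1) over the 6 libraries, each gene centred on its own mean, among genes of at least 5 FPKM. For Vdac1 they were Gpaa1 (0.022), Dohh (0.025) and Srsf9 (0.026), for Vdac2 Gng5 (0.026), C1qbp (0.039) and Cct2 (0.039), and for Vdac3 Akt2 (0.011), Gm11451 (0.028) and Sars (0.037). Akt2, for example, had 13.7, 13.6 and 13.2 FPKM in Flox livers against 8.66, 9.79 and 10.6 FPKM in HepKO livers, the same order of libraries as Vdac3.

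Related genes were counted in 8 lists holding 107 matched entries of 109, among them the 9 genes above. Without those 9, 87 of 97 genes were tested, of which 3 were called higher and 13 lower. Only with the directions pooled is this share near the 20.3% called over all tested genes. By direction, 11.0% of all tested genes were called lower and 9.33% higher. The 13 include Nedd4, the targeted gene, and 2 of the 3 (Hk1 and Hk2) passed the filter only through HepKO livers. The lists overlap in part, were chosen with earlier results of these data known, and were not compared with other genes by a test. Called counts of each list below stand beside the 11.0% lower and 9.33% higher of all tested genes. Unadjusted counts stand beside 4536 of all 12712 tested genes with an unadjusted p below 0.05. That number pools the directions, so it is no background for the unadjusted counts of 1 direction. Each call in a list was also tried in the 6 fits without 1 library. The 16 calls became 9, 3 and 5 without Flox replicate 1, 2 or 3, and 7, 4 and 15 without HepKO replicate 1, 2 or 3.

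Calcium transport genes had 3 lower and 0 higher of 12 tested (limma; 6 and 0 at an unadjusted p below 0.05), with a median log2 fold change of -0.28 against -0.06 over all tested genes. They include Vdac3 and Micu2. The third, Ghitm, an inner membrane protein gene, went from 94.6 ± 5.05 to 67.4 ± 11.3 FPKM (SD, n = 3; limma adjusted p = 0.0484), a call lost in 5 of 6 such fits (adjusted p up to 0.134; it held without HepKO replicate 3) and also without the variance trend (0.0505) and after median-ratio rescaling (0.0551). Among pore candidates and regulators 2 fell and 0 rose of 15 tested (7 and 0 unadjusted; median -0.26). Sirt3, a matrix deacetylase, fell from 5.61 to 3.09 FPKM (limma adjusted p = 0.0275), and Spg7, a subunit of an inner membrane protease, from 6.92 to 4.51 FPKM (0.0364). Sirt3 was lost without Flox replicate 1 or 2 or HepKO replicate 1 or 2 (up to 0.0899), and Spg7 in every such fit but that without HepKO replicate 3 (up to 0.116).

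ATP synthase, whose subunits have been proposed to form the pore, had estimates on one side of 0. Of 18 tested subunit and inhibitor genes 2 fell and 0 rose (8 and 0 unadjusted), a share near the 11.0% called lower over all tested genes. All 18 estimates lay below 0, as did 56.6% of those of all tested genes, and 11 of 18 had lower HepKO values without overlap, against 25.2% of all tested genes. The 18 genes were read in the same libraries, so their estimates are not separate observations. HepKO replicate 1 had the lowest HepKO value of each of them except Atpif1. The 18 stayed below 0 under the 3 rescalings, and 17 of 18 did without HepKO replicate 1. The median was -0.35, and between -0.41 and -0.23 under the alternatives. Atp5g1, a gene of the membrane ring subunit c, fell from 26.1 ± 1.74 to 14.8 ± 3.90 FPKM (SD, n = 3; limma adjusted p = 0.0256), and Atp5pb, of the peripheral stalk, from 54.8 to 40.6 FPKM (0.0216). Both were lost without Flox replicate 2 or 3 or HepKO replicate 2, and Atp5g1 also without Flox replicate 1 (up to 0.0813 and 0.077). Atp5b, the catalytic beta subunit and the most abundant, had 206 and 176 FPKM in Flox and HepKO livers (adjusted p = 0.132).

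Among hexokinases and BCL2 family genes, whose products can dock on VDAC, 3 were called higher and 0 lower of 11 tested (3 and 1 unadjusted; median -0.02, and up to 0.13 under the alternatives). For Hk1 and Hk2 the Flox mean was under the 0.5 FPKM filter, so they were tested only through their HepKO values and their calls are no support for a rise. Hk2 had 0.185, 0.182 and 0.241 FPKM in Flox livers against 1.75, 1.72 and 0.833 FPKM in HepKO livers. Hk1 had 0.35, 0.397 and 0.423 FPKM in Flox livers against 3.27, 1.59 and 1.06 FPKM in HepKO livers. Both hexokinases are also expressed by myeloid cells. Neutrophil markers summed to 10.6 to 20.5 FPKM in Flox and 134 to 160 FPKM in HepKO livers. The other myeloid lists were mixed. Estimates lay below 0 for 2 of 8 tested monocyte and macrophage markers and for 3 of 6 Kupffer cell markers. The part of these cells in the hexokinase values was not tested. Mcl1, an antiapoptotic member, rose from 51.5 to 84.3 FPKM (limma adjusted p = 0.0198; lost without Flox replicate 2 or 3 or HepKO replicate 2, up to 0.0721).

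Outer membrane import genes had 3 lower and 0 higher of 15 tested (5 and 1 unadjusted; median -0.28). Tomm40l, a paralog of the import channel, fell from 5.18 to 2.73 FPKM (limma adjusted p = 0.00991) and held in all 6 fits. Mtch2, an outer membrane insertase gene, fell from 15.0 to 10.4 FPKM (0.0219; lost in 4 fits, up to 0.0792, and kept without Flox replicate 1 or HepKO replicate 3), and the receptor Tomm70a from 15.4 to 11.6 FPKM (0.0439; kept only without HepKO replicate 3, up to 0.127). Tomm22 had 33.8 and 27.0 FPKM (adjusted p = 0.145). Genes of contact with the endoplasmic reticulum had 3 lower and 0 higher of 12 tested (7 and 0 unadjusted; median -0.33). Itpr2, the main hepatocyte receptor for inositol trisphosphate, fell from 1.67 to 0.86 FPKM (0.019), the fusion and tether gene Mfn2 from 11.5 to 7.77 FPKM (0.0245) and the tether gene Rmdn3 from 11.1 to 7.65 FPKM (0.0312). Each was lost when Flox replicate 2 or HepKO replicate 1 or 2 was left out, and Itpr2 and Rmdn3 also without Flox replicate 3, and Rmdn3 also without HepKO replicate 3 (up to 0.0713, 0.089 and 0.1). Hspa9, the chaperone that links VDAC1 to that receptor, had 195 and 161 FPKM (adjusted p = 0.117).

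Genes around TSPO and cholesterol transfer had 0 higher and 0 lower of 7 tested (limma; 1 higher and 0 lower unadjusted; median -0.09), and 1 was called higher after median-ratio rescaling. The most abundant, the TSPO ligand gene Dbi, had 198 ± 36.3 and 162 ± 18.1 FPKM (SD, n = 3; limma adjusted p = 0.267). Of 7 tested ligases and mitophagy genes that act on the channels, 2 fell and 0 rose (2 lower and 1 higher unadjusted; 1 and 1 after median-ratio rescaling), Nedd4 itself and Pink1, a kinase that starts mitophagy, which went from 66.2 to 48.0 FPKM (adjusted p = 0.0415) and was lost in each of the 6 fits (0.0516 to 0.121). Sqstm1, the most abundant of them, had 552 and 512 FPKM (adjusted p = 0.714).

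**Figure D4:**
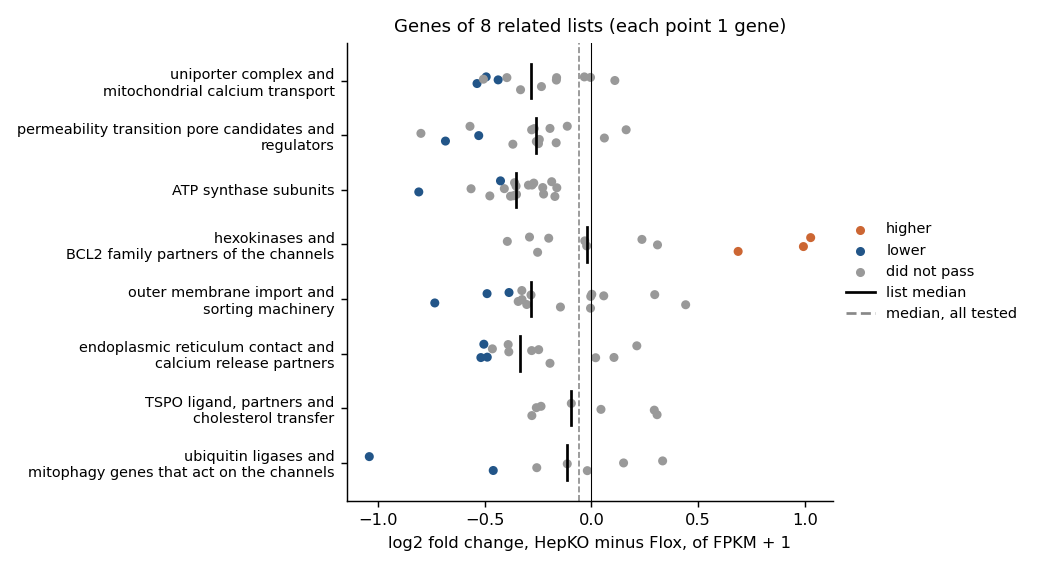
Log2 fold change of FPKM + 1 (HepKO minus Flox) of each tested gene in the 8 lists; colours mark genes past adjusted p 0.05, black bars list medians, and the dashed line the median of all tested genes (-0.06). Every ATP synthase point lies below 0, and the 3 genes called higher are in the list of hexokinases and BCL2 family partners, 2 of them (Hk1 and Hk2) with Flox means under the filter.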

How the data were processed

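RNA-seq of 6 mouse liver libraries was read from 1 deposited table of FPKM, which the authors made per the file headers. Per the submitters' processing notes, the tools were StringTie 1.3.4d, HISAT2 2.0.4, cutadapt 1.9, edgeR and DESeq2, with no role given. No source names the build, but the positions of all 9 genes equal those of GENCODE M21 on GRCm38. Libraries were poly(A) selected with a dUTP-marked second strand, per the labels' protocols. Each gene also has a p-value and a q-value deposited by the authors, whose test no source names.

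Since FPKM hold no counts, count models were left out. Genes averaging 0.5 FPKM or more (12712 of 28476) were tested with limma 3.58.1 (R 4.3.3) two-sided on log2(FPKM + 1) in a model of genotype alone with a variance trend, at a Benjamini-Hochberg adjusted p of 0.05; fold changes on this scale understate those of low genes. Single genes were also tested with an exact permutation test (scipy 1.17.1). The members, gene lists and tests were chosen with earlier results of these data known. Named genes were the 9 members, Nedd4, up to 3 called genes and the most abundant gene of each list, and the 3 genes most like each Vdac gene. The fit was checked on simulated data. The alternatives were 16 other settings (pseudocounts, filters, rescalings, limma settings, a replicate block, each library left out), and 1 chosen after seeing the data. Stretches of 75 bases were compared between GENCODE M21 transcripts, and promoters came from RefSeq.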

Additional observations from a re-analysis of the deposited data

How the results depend on the processing

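Vdac1 kept its direction and failed the threshold under all 17 alternatives (log2 fold change -0.23 to -0.07), and Nedd4 kept its call in all of them. No called result changed direction. The number of the 9 genes called, 2 as reported, was 1 without a filter beyond a value above 0, 1 after median-ratio rescaling and 0 to 1 without 1 library (limma; 3 or 4 at an unadjusted p below 0.05). The number of other list genes called, 16 as reported, was 7 without that filter and 3 to 15 without 1 library. The number of all genes called, 2583 as reported, was 1281 to 2257 without 1 library. Fits without 1 library have fewer samples, and the fit without a filter tests more genes (26473); beyond that the cause was not tested. With the replicate number as a block, 0 of the 9 genes (3 at an unadjusted p below 0.05), 6 other list genes and 1551 genes in all were called. The numbers are not known to pair the libraries: same-numbered libraries had correlations of their deviations from the group means of 0.00292, 0.00206 and -0.0255 over tested genes. Among the other results, single genes (called or not) and counts of 1 list, an alternative left 607 values on the same side of the threshold or within 1.5 times the count, a called gene lost its call in 112 cases, 1 gene (Tspo) gained one and 44 list counts moved further. Rescalings shifted the median log2 fold change of all tested genes by at most 0.064. Depth is unknown, so counting error is not separated from the spread between libraries.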
